A study of Mus musculus with 8 samples.

Results

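Receptors for glutamate, GABA and acetylcholine were followed in mouse embryonic stem cells (ESCs) depleted of KDM2B, the ZF-CxxC protein that binds non-methylated CpG DNA and brings a polycomb PRC1 complex to CpG islands. The genes were taken by symbol: all those beginning with Gria, Grik, Grin, Grid, Grm, Gabr or Chrn followed by a subunit letter or number, without genes whose symbol only refers to such a receptor, such as Grina. These families, and the lists of related genes below, were chosen with earlier results of these data known. Of 61 such genes, 55 had a probe set of their own, out of 19938 genes so measured, and the other 6 (3 Gabr, 1 Grid, 1 Grin and 1 Grm) were not analysed here. The 55 were made up of 4 Gria, 5 Grik, 6 Grin, 1 Grid, 7 Grm, 16 Gabr and 16 Chrn genes.

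Total RNA came from E14 cells, a mouse ESC line grown with LIF, after lentiviral delivery and puromycin selection of 1 shRNA against Kdm2b (4 samples, passages 27 to 30) or 1 scrambled shRNA (4 samples, passages 28 to 31). Within a replicate number, the knockdown cells were always 1 passage younger than the controls. Each sample was read on 1 Affymetrix Mouse Gene ST array. The samples are labelled as biological replicates of these lines, so that the p-values reflect the spread between samples of a line and not between shRNAs or clones.

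Gria, Grik, Grin and Grid genes encode subunits of the AMPA, kainate, NMDA and delta classes of glutamate-gated ion channels, and Grm genes encode G protein-coupled glutamate receptors. Gabr genes encode subunits of the GABA-A class of chloride channels, which carry most fast inhibition in the brain, and Chrn genes encode subunits of the nicotinic acetylcholine receptors of neurons, muscle and some epithelia. All these receptors are best known from synapses. In ESCs, many genes of neural and other later lineages lie in CpG islands held in a silent polycomb state.

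Of the 55 receptor genes, 3 rose and 3 fell in the knockdown arrays under the gene rule of the study's methods, and 49 were not called. Under this rule most probe sets of a gene must reach an adjusted p under 0.05 and the most significant of them must differ at least 1.5-fold. The genes that rose were the kainate receptor genes Grik3 and Grik4 and the nicotinic receptor gene Chrna4, and those that fell were Gabra3, Gabra4 and Gabra5, which encode alpha subunits of GABA-A receptors. The share of receptor genes meeting the rule was 10.9%, against 2.85% of all genes. In each direction it was 5.45%, against 1.42% of all genes for rises and 1.43% for falls. With the fold limit left aside, 8 of the 55 had an adjusted p under 0.05, or 14.5% against 10.7% of all genes. Of these, 4 were higher and 4 lower, with 5.93% of all genes higher and 4.8% lower. The order was the other way round for an unadjusted p under 0.05, reached by 12 of 55 (21.8%) against 30.4% of all genes. The median log2 fold change of the receptor genes was 0.05, as was that of all genes. It was above 0 in 36 of the 55 receptor genes and in 12297 of all 19938 genes. The number meeting the rule was 3 without knockdown replicate 2, without knockdown replicate 4, without control replicate 3 or without control replicate 4, and in each of these fits the genes were Grik3, Grik4 and Gabra3. Those with an adjusted p under 0.05 then numbered 4 or 5. The count over all 19938 genes fell as well, from 569 meeting the rule to 358, 368, 366 and 428 in these fits, in the order given. With the 6 arrays of passages 28 to 30 alone and passage as a block, 0 of the 55 met the rule in limma and 8 had an unadjusted p under 0.05. In that fit 160 of all genes met the rule.

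The 250 bases before the annotated start of these 6 genes are shown because their CpG content differed between the genes that rose and those that fell. They are from RefSeq (GRCm38.p6), written 5′ to 3′ along the gene's strand, with each CpG in capitals. Grik3 lies at chr4:125490446-125490695 (+), Grik4 at chr9:42944372-42944621 (-) and Chrna4 at chr2:181039178-181039427 (-). Gabra3 lies at chrX:72656808-72657057 (-), Gabra4 at chr5:71658309-71658558 (-) and Gabra5 at chr7:57510060-57510309 (-).
Grik3: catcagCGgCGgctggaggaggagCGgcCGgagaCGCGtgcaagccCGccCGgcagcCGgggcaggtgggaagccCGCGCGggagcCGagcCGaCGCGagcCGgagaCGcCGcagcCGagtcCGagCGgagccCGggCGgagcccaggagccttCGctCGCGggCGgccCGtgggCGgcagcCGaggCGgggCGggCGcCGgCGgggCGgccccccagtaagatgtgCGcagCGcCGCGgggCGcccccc
Grik4: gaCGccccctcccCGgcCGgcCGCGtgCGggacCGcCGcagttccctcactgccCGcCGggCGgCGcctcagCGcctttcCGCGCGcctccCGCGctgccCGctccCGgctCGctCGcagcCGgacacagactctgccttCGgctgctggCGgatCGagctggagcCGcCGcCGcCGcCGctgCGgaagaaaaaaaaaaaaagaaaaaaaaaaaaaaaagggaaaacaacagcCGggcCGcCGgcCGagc
Chrna4: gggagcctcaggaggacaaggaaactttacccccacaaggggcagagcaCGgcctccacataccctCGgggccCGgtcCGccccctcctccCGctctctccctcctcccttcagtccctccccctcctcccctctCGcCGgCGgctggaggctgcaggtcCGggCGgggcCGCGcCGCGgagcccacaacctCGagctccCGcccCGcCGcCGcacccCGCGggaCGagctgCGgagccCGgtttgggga
Gabra3: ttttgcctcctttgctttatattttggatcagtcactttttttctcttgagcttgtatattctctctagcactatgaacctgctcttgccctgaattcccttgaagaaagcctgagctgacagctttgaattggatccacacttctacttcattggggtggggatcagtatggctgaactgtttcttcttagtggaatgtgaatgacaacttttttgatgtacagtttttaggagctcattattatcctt
Gabra4: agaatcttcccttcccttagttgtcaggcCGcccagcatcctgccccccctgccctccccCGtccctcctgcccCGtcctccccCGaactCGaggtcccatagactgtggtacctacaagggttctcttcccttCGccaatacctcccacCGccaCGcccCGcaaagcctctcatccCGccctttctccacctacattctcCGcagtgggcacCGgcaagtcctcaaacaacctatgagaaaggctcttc
Gabra5: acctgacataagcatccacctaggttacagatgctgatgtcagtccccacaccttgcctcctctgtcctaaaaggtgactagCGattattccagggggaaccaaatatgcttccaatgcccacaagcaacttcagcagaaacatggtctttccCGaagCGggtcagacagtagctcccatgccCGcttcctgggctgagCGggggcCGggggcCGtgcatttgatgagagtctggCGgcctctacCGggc

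These stretches held 42, 36 and 24 CpGs in the genes that rose and 0, 12 and 9 in those that fell. Over the whole 300-base window, which runs to 50 bases past the start, the counts were 50, 42 and 33 for Grik3, Grik4 and Chrna4 and 0, 12 and 13 for Gabra3, Gabra4 and Gabra5. A window was taken as CpG-rich when its GC content was at least 50% and its CpG count at least 0.6 of that given by its C and G content. Of the 41 receptor genes with a window in the table, 17 (41.5%) were CpG-rich in at least 1 window, against 52.5% of 15563 genes. All 3 genes that rose were CpG-rich in their own window, and none of the 3 that fell was, although Gabra4 and Gabra5, at ratios of 0.54, lay just under the limit. The result also depends on where a window falls. Close to the Gabra4 window (chr5:71658259-71658558), a window of its neighbour Gabrb1 (chr5:71657671-71657970) was CpG-rich, with 25 CpGs and a ratio of 0.80. Among all genes, CpG-rich windows were found for 63.5% of 211 genes that rose and 52.1% of 217 that fell. A dense promoter did not go with a rise in every receptor gene: 5 had 30 or more CpGs, and Chrna7 and Grm8, with 35 and 33, had log2 fold changes of -0.02 and 0.01. The median log2 fold change was 0.03 for the CpG-rich and 0.06 for the other receptor genes. These are descriptions of sequence, and neither KDM2B binding nor DNA methylation was read on these arrays.

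**Figure D1:**
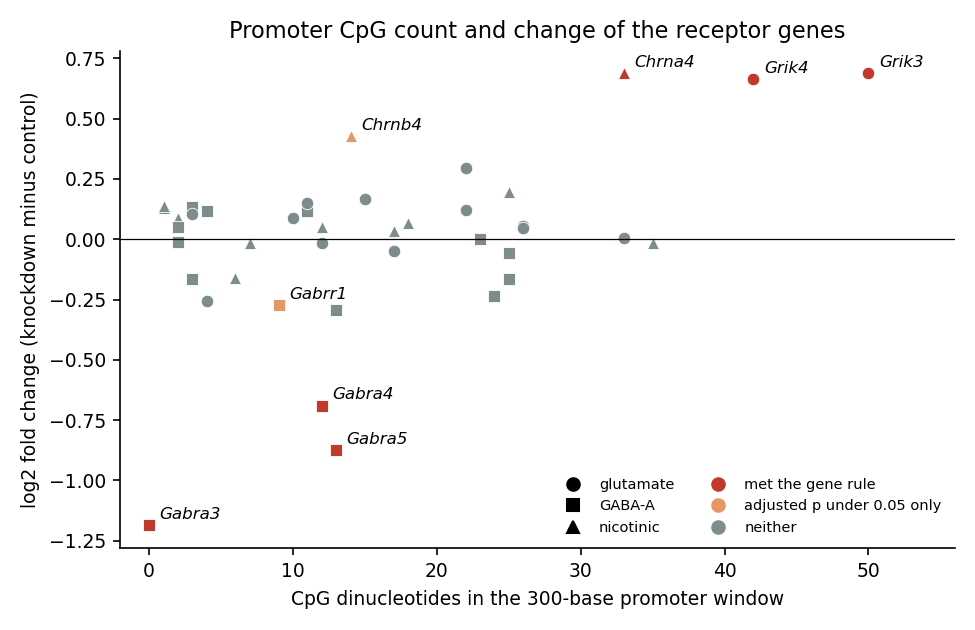
Log2 fold change (knockdown minus control) against the number of CpGs in the 300-base promoter window (the densest window of each gene) for the 41 receptor genes with a window; each point is 1 gene, its shape the transmitter and its colour the outcome of the test. Grik3 and Grik4 have the highest counts, at 50 and 42, while Gabra3 has 0.

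Kdm2b itself had a log2 fold change of -2.05 (limma, adjusted p = 0.000891, 95% confidence interval -2.46 to -1.65). Its signal was 9.45 in knockdown replicate 3, the highest of the 4 knockdown arrays, and this array also lay nearest to the controls on the first principal component, which held 51.7% of the variance. All 11 markers of ESCs that were listed gave strong signals. The list means were 13.10 to 13.12 in the knockdown and 12.83 to 13.06 in the control arrays, without overlap. None of the 11 met the gene rule, which 2.85% of all genes met. Their log2 fold change was above 0 in 10, with a median of 0.19 (0.05 for all genes). In 4 of them every knockdown array lay above every control array, as in 11.8% of all genes. An unadjusted p under 0.05 was found for 6, all higher. For comparison with this and the following lists, 16.8% of all genes were higher and 13.6% lower by that measure. Of 14 markers of neural progenitors and neurons, 1, Pax6, fell and none rose under the gene rule (list means 9.32 to 9.45 and 9.35 to 9.49). For an unadjusted p under 0.05 the neural list had 5 higher and 4 lower, among them Syn1 at a log2 fold change of 0.31 (adjusted p = 0.0430 from limma), Elavl3 at 0.74 (0.0607, groups not overlapping) and Nes at -0.78 (0.0512). With replicate numbers as a block, the adjusted p from limma was 0.0652 for Syn1 and 0.0376 for Nes. Of 10 skeletal muscle markers 1, Des, rose (8.47 to 8.66 and 8.42 to 8.53), and of 8 fibroblast markers 1, Thy1, rose (9.11 to 9.42 and 9.05 to 9.50). The muscle list had 3 higher and 2 lower for an unadjusted p under 0.05, with Myh3 at 0.58 and Actc1 at -0.42 (adjusted p = 0.00694 and 0.00385 from limma, both short of 1.5-fold), and the fibroblast list 2 higher and 1 lower. The part of other cell types in the receptor results was not tested, and in bulk RNA fewer cells of a type and less RNA per cell cannot be told apart.

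**Figure D2:**
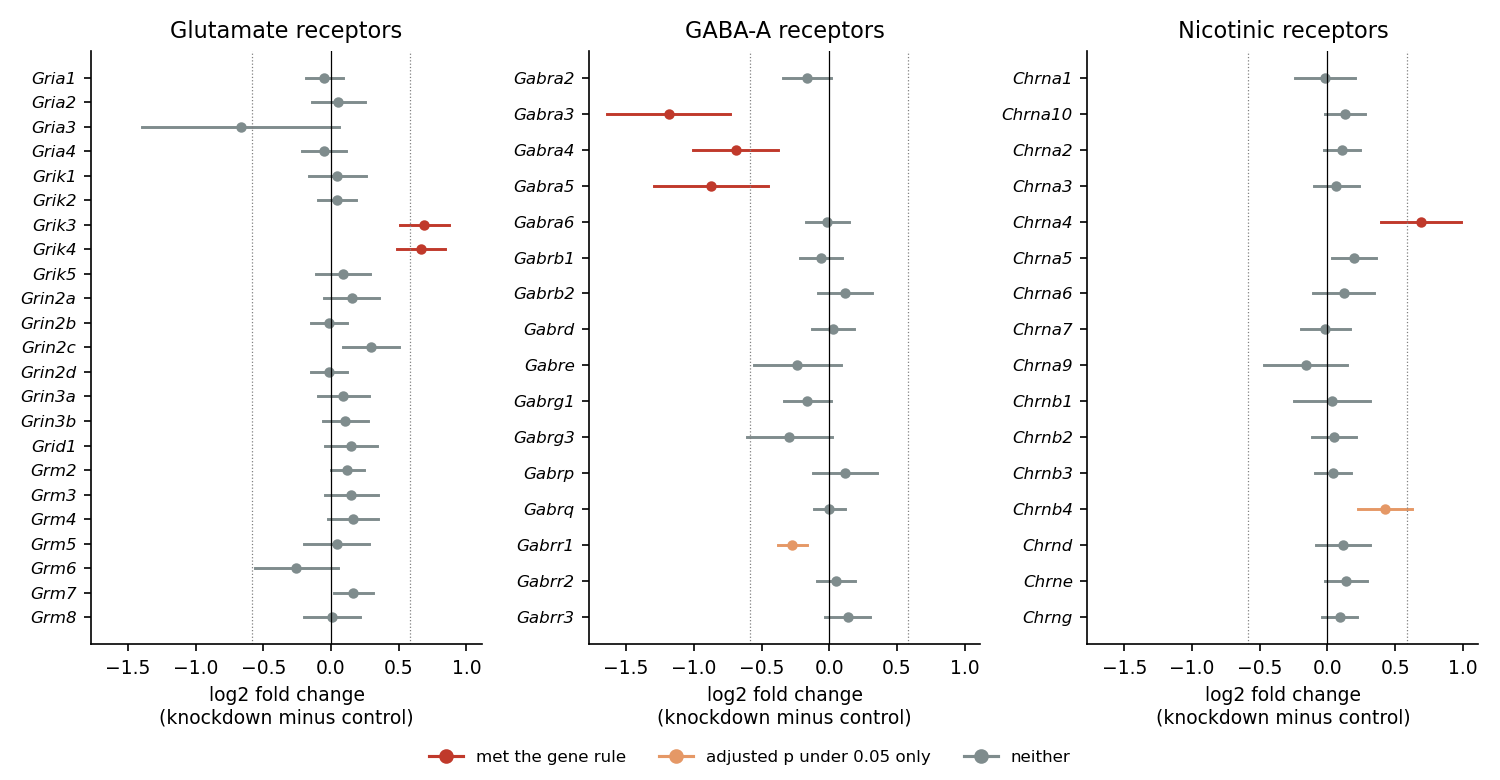
Log2 fold change (knockdown minus control) of the 55 receptor genes with its 95% confidence interval from limma, n = 4 arrays per group; dotted lines mark 1.5-fold and colours the outcome of the test. Most intervals lie inside the dotted lines, and the 3 GABA-A genes that fell stand to the left of the other genes of their panel.

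Of the 5 kainate receptor genes, Grik3 and Grik4 rose and the other 3 did not pass the test. Grik3, a gene for a subunit that can form channels on its own, gave log2 signals of 11.28, 11.29, 11.25 and 11.37 in knockdown replicates 1 to 4 and of 10.78, 10.41, 10.64 and 10.61 in the controls. The knockdown arrays agreed closely and all lay above the highest control. The difference was 0.69 on the log2 scale, or 1.61-fold (95% confidence interval 0.51 to 0.87, adjusted p = 0.00335 from limma).

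Grik4, a gene for a subunit that forms channels only together with other kainate subunits, had log2 signals of 9.11, 8.91, 8.78 and 9.02 in the knockdown and 8.25, 8.26, 8.28 and 8.37 in the control arrays. Again the groups did not overlap, and knockdown replicate 3 was lowest. Its log2 fold change was 0.66, or 1.58-fold (0.49 to 0.84, adjusted p = 0.00336 from limma). The calls on Grik3 and Grik4 held without any 1 array. The partner subunit gene Grik5 had a log2 fold change of 0.09 (-0.11 to 0.28), Grik2 of 0.05 (-0.09 to 0.19) and Grik1 of 0.05 (-0.16 to 0.26), none of which passed the test.

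None of the other 18 glutamate receptor genes met the gene rule with limma, and 3 of them, all higher, had an unadjusted p under 0.05. Of all genes, 16.8% were higher and 13.6% lower by that measure. Grin2c, an NMDA receptor subunit gene best known from cerebellum, came nearest. Its log2 signals were 8.47, 8.36, 8.06 and 8.19 in the knockdown and 7.96, 8.06, 7.91 and 7.96 in the control arrays, so that knockdown replicate 3 lay only just above the highest control. Its log2 fold change was 0.30 (adjusted p = 0.0816 from limma, 0.0233 without knockdown replicate 3, and 0.0479 with 1 probe set per gene). Grin2a, at 0.15, and Grin2d, at -0.02, did not pass the test, and Grin2b, Grin3a and Grin3b stood at -0.02, 0.09 and 0.11.

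Gria3, an X-linked AMPA receptor gene, had the widest spread. Its control arrays gave 9.15, 7.57, 7.83 and 7.76 and its knockdown arrays 7.07, 7.53, 7.54 and 7.51. Control replicate 1 lay far above the other controls. The log2 fold change of -0.67 (adjusted p = 0.230 from limma) became -0.31 without that array (adjusted p = 0.196). The other AMPA receptor genes Gria1, Gria2 and Gria4 had log2 fold changes of -0.05, 0.05 and -0.05, and the delta receptor gene Grid1 one of 0.15.

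Among the metabotropic genes, 6 of 7 had a log2 fold change above 0 (12297 of all 19938 genes did) and none an adjusted p under 0.05. Grm7 and Grm2, which encode receptors that lower transmitter release, had the smallest p-values, with log2 fold changes of 0.17 and 0.12 (adjusted p = 0.151 and 0.191 from limma). Grm3, Grm4, Grm5 and Grm8 stood at 0.15, 0.16, 0.04 and 0.01. Grm6, a gene known from retinal bipolar cells, was the one below 0, at -0.26 (adjusted p = 0.269), with control replicates 3 and 4 at 8.40 and 8.27 and all other arrays between 7.71 and 7.96.

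Of the 16 GABA-A receptor genes, 3 fell, none rose and 13 were not called. The log2 fold change was below 0 in 10 and above 0 in 6, with a median of -0.11. Over all genes it was below 0 in 7641 and above 0 in 12297, with a median of 0.05. Gabra3, on the X chromosome, gave 7.93, 7.97, 8.22 and 7.83 in the knockdown arrays and 8.75, 8.94, 9.76 and 9.24 in the controls. The controls varied more than the knockdown arrays (SD 0.44 and 0.17, n = 4 each), yet every control lay above every knockdown array. Gabra3 fell by 1.19 on the log2 scale (limma, adjusted p = 0.0123, 95% confidence interval -1.64 to -0.73), a control signal 2.27-fold above that of the knockdown.

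Gabra5, a gene for an alpha subunit of receptors that lie largely outside synapses, gave 7.39, 7.47, 7.24 and 7.30 in the knockdown and 7.95, 7.79, 8.70 and 8.45 in the control arrays. It fell by 0.87 on the log2 scale (-1.30 to -0.45, adjusted p = 0.0269 from limma). Gabra4, which likewise encodes an alpha subunit found largely outside synapses, gave 6.98, 7.20, 7.29 and 7.18 against 7.68, 7.61, 8.25 and 7.87. It fell by 0.69 (adjusted p = 0.0224, standard error 0.14). For all 3 alpha subunit genes control replicate 3 was the highest array and control replicate 4 came next, and the groups did not overlap.

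The call on Gabra3 held without any 1 array. That on Gabra4 was lost when knockdown replicate 2 or 4, or else control replicate 4, was left out (adjusted p = 0.0599 to 0.0635 from limma), and its log2 fold change came to -0.56 without control replicate 3, short of 1.5-fold. That on Gabra5 was lost when knockdown replicate 1, 2 or 4, or else control replicate 3 or 4, was left out (0.0511 to 0.0766). The remaining alpha genes Gabra2 and Gabra6 had log2 fold changes of -0.16 and -0.01 and did not pass.

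Gabrr1, a gene for a rho subunit known from the retina, had a small but even difference. All knockdown arrays lay between 8.10 and 8.18 and all controls between 8.38 and 8.44. Although below 1.5-fold, its log2 fold change of -0.27 had an adjusted p of 0.0131 in limma. The other rho genes Gabrr2 and Gabrr3 stood at 0.05 and 0.13. Of the beta, gamma, delta, epsilon, pi and theta genes none passed, from Gabrg3 at -0.29 to Gabrp at 0.12 and with the delta gene Gabrd at 0.03. The 3 probe sets of Gabrb2, the one receptor gene with several, read 0.10, 0.12 and 0.05.

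The genes that fell lie in known GABA-A receptor clusters, but their measured neighbours did not pass the test with them. Gabra4 lies in a cluster on chromosome 5 with Gabrg1, Gabra2 and Gabrb1, which had log2 fold changes of -0.16, -0.16 and -0.06. Next to Gabra5 on chromosome 7 lies Gabrg3, at -0.29 (adjusted p = 0.217 from limma), whose highest arrays were again control replicates 3 and 4, at 8.01 and 7.76. Beside Gabra3 on the X chromosome, Gabrq had a log2 fold change of 0.00 and Gabre, with 1 coding gene in between, of -0.24 (adjusted p = 0.327).

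Of the 16 nicotinic receptor genes, 1 rose and none fell, and 13 had a log2 fold change above 0 (median 0.10). Most genes leaned the same way, with 12297 of all 19938 above 0 (median 0.05). Chrna4, which encodes the alpha subunit of the main high-affinity nicotine receptor of the brain, gave 9.84, 9.61, 9.15 and 9.67 in the knockdown arrays. Its controls lay close together, at 8.90, 8.91, 8.86 and 8.86. The rise was 0.69 on the log2 scale, or 1.61-fold (0.39 to 0.98, adjusted p = 0.0186 from limma), and knockdown replicate 3 was nearest to the controls without meeting them. This call was lost when knockdown replicate 2 or 4, or else control replicate 2, 3 or 4, was left out (adjusted p = 0.0519 to 0.0615). Chrnb2, the gene of its usual partner subunit, had a log2 fold change of 0.05 (-0.11 to 0.21).

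Chrnb4, a beta subunit gene of ganglionic receptors, lies with Chrna3 and Chrna5 in a cluster on chromosome 9. It gave 8.75, 8.77, 8.49 and 8.62 in the knockdown and 8.18, 8.09, 8.25 and 8.39 in the control arrays. The groups did not overlap, and its log2 fold change of 0.43 passed the p threshold but not the fold limit (adjusted p = 0.0244 from limma). It no longer passed when knockdown replicate 1, 2 or 4, or else control replicate 2 or 3, was left out (0.0515 to 0.0766). Chrna5 had 0.19 (adjusted p = 0.134), with knockdown arrays at 7.57 to 7.82 just above the controls at 7.38 to 7.55. Chrna3 had 0.07 (adjusted p = 0.604).

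Chrna7, whose product forms channels on its own, gave 10.00 to 10.24 in the knockdown and 9.98 to 10.24 in the control arrays, so that the groups fully overlapped (log2 fold change -0.02, 95% confidence interval -0.20 to 0.17). None of the 5 genes of the muscle receptor (Chrna1, Chrnb1, Chrnd, Chrne and Chrng) passed the test or had an unadjusted p under 0.05, with log2 fold changes from -0.01 to 0.14. Chrna9 and Chrna10, known from cochlear hair cells, stood at -0.16 and 0.13, and Chrna2, Chrna6 and Chrnb3 at 0.11, 0.12 and 0.04.

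**Figure D3:**
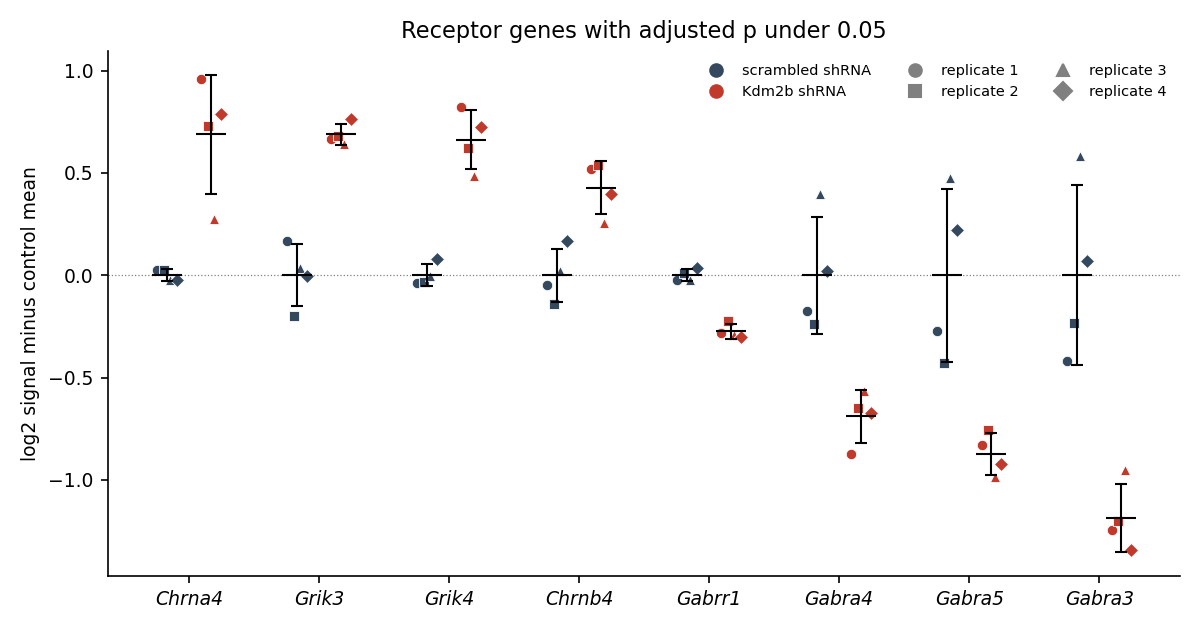
Log2 signal of the 8 receptor genes with an adjusted p under 0.05 on each array, relative to the control mean of the same probe set; points are arrays (symbols mark replicate numbers), bars the mean and SD (n = 4 per group). The groups do not overlap for any of the 8, and control replicate 3 is the highest array for Gabra3, Gabra4 and Gabra5.

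Over all 55 genes, the knockdown and control arrays did not overlap in 11, with 6 higher and 5 lower, where 21.0% of all genes did not overlap (11.8% higher and 9.18% lower). These were the 8 with an adjusted p under 0.05 together with Grin2c (adjusted p = 0.0816 from limma), Chrna5 (0.134) and Gria3 (0.230). In 5 of the 6 genes that met the gene rule, knockdown replicate 3, the array with the most Kdm2b signal, lay nearest to the control mean, the exception being Gabra5. For Grik3 it differed little from replicate 1 (11.25 and 11.28). The array was nearest in 3 of the 5 related genes that met the rule. It also lay nearest to the controls on the first principal component of all probe sets, so this was not particular to the receptor genes. Whether the remaining Kdm2b bears on this was not tested. For 46 of the 49 genes that did not meet the rule, the 95% confidence interval lay within 1.5-fold in both directions, the others being Gria3, Gabrg3 and Chrnb4. Of the 55 genes, 45 had a mean signal below the median of all probe sets, compared with 8332 of all 19938 genes, and differences of dim probe sets are compressed on such arrays.

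Genes that serve these receptors were taken from 4 lists, of which 70 of 74 were measured. Of these 70, the gene rule (met by 2.85% of all genes) called 4 as higher and 1 as lower. That total of 5 became 3 when knockdown replicate 1, 2 or 4, or else control replicate 2 or 3, was left out. Over all genes, 358 to 483 met the rule in these fits, against 569 in the reported one. The largest rise was that of Abat, which encodes the transaminase that breaks down GABA. It gave 10.52, 10.52, 10.53 and 10.57 in the knockdown and 9.42, 9.44, 9.11 and 9.29 in the control arrays, a rise of 2.33-fold (limma, log2 fold change 1.22, standard error 0.08, adjusted p = 0.000267). In the same list of 18 genes for making, breaking down and carrying transmitters, the glutamate transporter gene Slc1a1 rose by 0.84 (adjusted p = 0.0249), from control arrays of 8.63 to 9.17 to knockdown arrays of 9.32 to 9.99. That call was lost when knockdown replicate 1, 2 or 4, or else control replicate 2 or 3, was left out (0.0514 to 0.0763). The transporter genes Slc1a3, of glia, and Slc17a7, of glutamatergic vesicles, had log2 fold changes of 0.45 and 0.52 (adjusted p = 0.00723 and 0.0351), both short of 1.5-fold.

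Of 17 genes for auxiliary subunits and assembly factors, 2 rose and 1 fell. Neto2, whose product is an auxiliary subunit of kainate receptors, gave 7.76, 7.97, 8.99 and 8.31 in the knockdown and 9.12, 9.06, 9.72 and 9.84 in the control arrays. Its signal was 2.26-fold higher in the controls (adjusted p = 0.0397 from limma), and knockdown replicate 3 lay just below the lowest control. The call was lost without any 1 of 6 arrays, all but knockdown replicate 3 and control replicate 1 (adjusted p = 0.0642 to 0.111). Neto1, of the same kind, had -0.04. Tmem35a, a gene for a chaperone of nicotinic receptors, rose by 0.75 and Cacng5, an auxiliary subunit gene of AMPA receptors, by 0.73 (adjusted p = 0.00403 and 0.00407), both without overlap of the groups. Shisa6, also of AMPA receptors, had a log2 fold change of -0.38 (adjusted p = 0.0374, but 0.0708 when replicate numbers were a block).

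**Figure D4:**
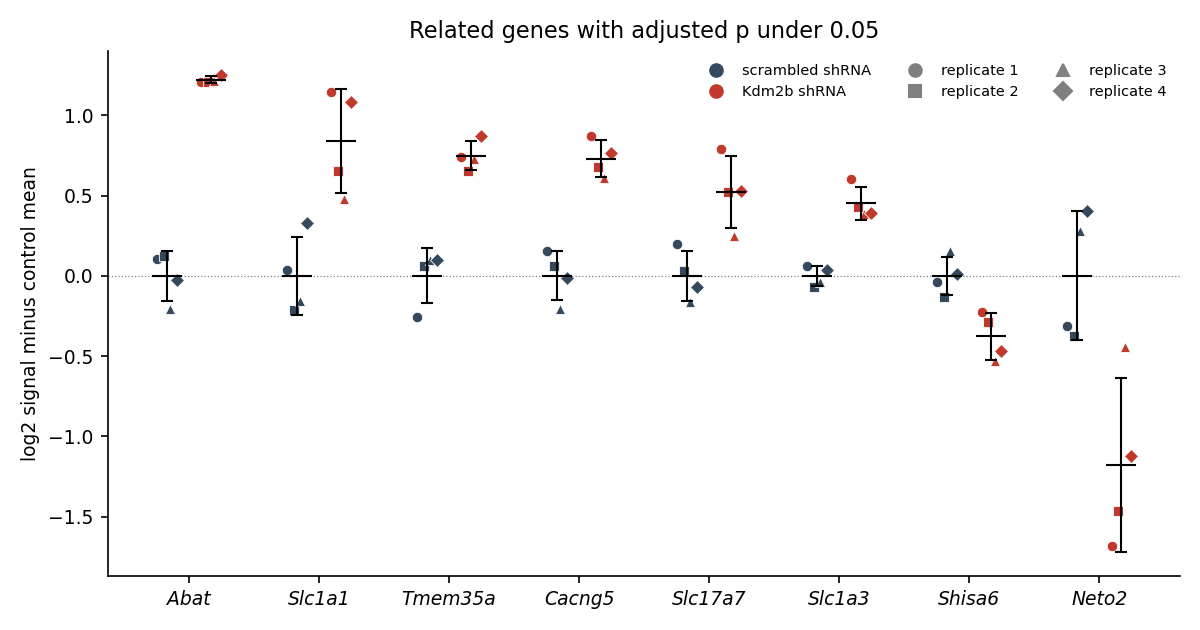
Log2 signal of the 8 related genes with an adjusted p under 0.05 on each array, relative to the control mean of the same probe set; points are arrays (symbols mark replicate numbers), bars the mean and SD (n = 4 per group). Abat shows the tightest knockdown values and Neto2 the widest, with knockdown replicate 3 nearest to the controls.

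None of 21 genes for postsynaptic scaffolds and clustering factors met the gene rule with limma. An unadjusted p under 0.05 was found for 10, of which 6 were higher, where 30.4% of all genes had one. Gphn, which encodes the gephyrin scaffold of inhibitory synapses, had a log2 fold change of 0.29 (adjusted p = 0.0917, 0.0412 when replicate numbers were a block, and 0.0459 without control replicate 4). Grip1, a gene for an AMPA receptor scaffold, had -0.31 (adjusted p = 0.0747, and 0.0467 with the block).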

How the data were processed

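The authors deposited log2 values per probe set, which come from RMA as run in oligo (version 1.18.1 in the submitters' processing notes), and these were used as deposited. RMA includes background correction and quantile normalization, so that a shift of most transcripts one way is not visible. The array medians lay between 8.47 and 8.53. The genome build behind the probe sets is not given in the sources used here.

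Probe sets were named through GEO's platform annotation, with symbols updated by gene identifier from RefSeq (GRCm38.p6). Of 35556 probe sets, 21789 name 1 gene, 1621 several and 12146 none here, and only the first kind was used for genes. Where a gene had several probe sets, p-values are those of the most significant and medians use the brightest.

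limma 3.58.1 in R 4.3.3 (lmFit, eBayes) was fitted to all probe sets and 8 arrays, two-sided, with Benjamini-Hochberg adjustment over all probe sets, and was first tested on simulated data. Same-numbered arrays deviated together from their group means (r = 0.239, 0.118, 0.355 and 0.222 for replicates 1 to 4, each above 0.1), so that the numbers, shared in the labels and described there as collected in parallel, were taken to pair the arrays. The fit without this block is reported, since the methods state none. Alternatives were the block, leaving out each array, dropping dim probe sets, median centring, an intensity trend with robust prior, 1 probe set per gene, passages 28 to 30 alone and no fold limit. Promoter windows are RefSeq's, and of a gene's windows the one with most CpGs was used. The named genes were the receptor genes with an adjusted p under 0.05, the 2 with the smallest p and the brightest of each family, and of each related list those called and the 2 with the smallest p, while other members are named to account for them, and Slc17a7, Shisa6, Neto1 and the markers Syn1, Elavl3, Nes, Myh3 and Actc1 after their values were seen. The members and lists were chosen with earlier results of these data known. The number of arrays limits the precision. Figures were drawn with matplotlib 3.10.9.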

Additional observations from a re-analysis of the deposited data

Results flagged for a closer look

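A sample far from the other 3 of its group, by Dixon's test, was found in 5 of the 58 groups of 4 arrays examined for the named genes and Kdm2b. Chance gives about 1 in 20. Gria3 had both of its groups among them: control replicate 1 read 9.15 against 7.57 to 7.83 in the other controls, and knockdown replicate 1 read 7.07 against 7.51 to 7.54. For Gria1, control replicate 2 read 7.33 against 7.22 to 7.24. For Grin2d, control replicate 1 read 8.55 against 8.42 to 8.44. For Tmem35a, control replicate 1 read 7.56 against 7.88 to 7.92, below the other controls and so farther from the knockdown arrays. Of the 6 receptor genes that met the gene rule none had such an array.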

How the results depend on the processing

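With the replicate number as a block, without dim probe sets (which left 45 of the 55 receptor genes), with median centring, with an intensity trend and robust prior or with 1 probe set per gene, 6 receptor genes and 5 related genes met the gene rule, as in the reported fit. Of all genes, 555 to 657 met the rule in these fits (652 with the block), against 569 in the reported one. The blocked fit gave the receptor genes a median log2 fold change of 0.05. Beside the related genes given with it in the text, it moved only Chrm4, Syn1 and Nes among the named genes across an adjusted p of 0.05. Their adjusted p from limma was then 0.0359, 0.0652 and 0.0376. Some genes above lost an adjusted p under 0.05 when 1 array was left out of the reported fit. For Neto2, Slc1a1 and Gabra4 the block lowered the adjusted p from limma, to 0.0104, 0.00901 and 0.0146. For Gabra5, Chrna4 and Chrnb4 it raised it, to 0.0449, 0.0208 and 0.0450. Leaving out 1 array gave 3 to 6 receptor genes under the rule, 4 to 10 with an adjusted p under 0.05 and 3 to 6 related genes under the rule. Of all genes, 358 to 829 met the rule in these fits. With 1 probe set per gene, Grin2c, Grip1 and Chrm4 also reached an adjusted p under 0.05, at 0.0479, 0.0426 and 0.0402. With no fold limit, 8 receptor and 8 related genes passed. With passages 28 to 30 alone and the passage as a block, 0 receptor genes met the rule or had an adjusted p under 0.05 in limma (8 had an unadjusted p under 0.05), and 2 related genes met it, against 160 of all genes. That fit has 6 arrays and sets different replicate numbers against each other. In it Grik3, Grik4, Gabra3, Gabra4, Gabra5 and Chrna4 had log2 fold changes of 0.69, 0.64, -1.14, -0.62, -0.81 and 0.59. The direction turned only for genes near 0. Chrna7 ran from -0.074 to 0.028 without 1 array and was 0.024 with passages 28 to 30, Gabrd ran from -0.0017 to 0.069 and was -0.025, and Grin2d ran from -0.038 to 0.019. The cause was not tested. The number of arrays and the dim signal of most receptor probe sets limit which differences could be detected.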

Other observations

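Other receptors of the same or similar transmitters were listed as well. Of 14 such genes none met the gene rule with limma. An unadjusted p under 0.05 was found for 4, of which 3 were higher, where 30.4% of all genes had one. Chrm4, a gene for an inhibitory muscarinic acetylcholine receptor, read 9.84, 9.68, 9.50 and 9.78 in the knockdown and 9.54, 9.34, 9.35 and 9.39 in the control arrays (log2 fold change 0.29, adjusted p = 0.0702, and 0.0359 when replicate numbers were a block, from limma). The adjusted p was 0.0191 without knockdown replicate 3. Chrm3, a gene for an excitatory muscarinic receptor, had a log2 fold change of -0.23 (adjusted p = 0.104). Gabbr1, which encodes a subunit of the metabotropic GABA-B receptor and was added here after its values were seen, had one of 0.24 (adjusted p = 0.135), with every knockdown array above every control array.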
